A study of Caenorhabditis elegans with 92 samples.

Results

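The regions described here are ChIP-seq peaks of DPY-26 on the X chromosome of C. elegans embryos where neither DPY-28 nor CAPG-1 had a peak. They were chosen by overlap alone: an X peak of the DPY-26 list that shared not even 1 bp with a peak of the DPY-28 list or of the CAPG-1 list. Of 2376 DPY-26 peaks on the X, 948 met this rule (39.9%), and these are called the DPY-26-only peaks below, with respect to the 3 non-SMC subunits. The other X DPY-26 peaks overlapped a peak of both partners (980 peaks, called shared peaks) or of one partner (448 peaks, 217 with DPY-28 alone and 231 with CAPG-1 alone). A list holds only the peaks that passed its threshold, so a region without a DPY-28 peak may still have carried DPY-28 signal under that threshold.

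DPY-26, DPY-28 and CAPG-1 are the non-SMC subunits of condensin I, and the same proteins serve in condensin I-DC, the condensin of the dosage compensation complex that binds both hermaphrodite X chromosomes and lowers their transcription. The SMC pair differs between them: DPY-27 with MIX-1 in condensin I-DC, and SMC-4 with MIX-1 in condensin I and condensin II, whose own non-SMC subunits are KLE-2, HCP-6 and CAPG-2. The dosage compensation complex is recruited to strong sites on the X by SDC-2 and its partners and spreads from them to promoters along the chromosome. The comparison here addresses which of these components were called where DPY-26 was called without its non-SMC partners.

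The study profiled these proteins in embryos of mixed stages from the wild type strain N2, together with the cohesin loader SCC-2 (PQN-85), the large RNA polymerase II subunit AMA-1 and a control immunoprecipitation with IgG. Embryos were fixed in 2% formaldehyde for 30 minutes. KLE-2 was also profiled in wild type L3 larvae, and 4 proteins (SCC-2, DPY-26, KLE-2 and HCP-6) in embryos of TY1072, which carries her-1(e1520) V and sdc-2(y74) X and is a genetically male, tetraploid strain without SDC-2. The DPY-26 list joins 5 libraries made with 3 antibodies, the DPY-28 list 4 libraries with 2 antibodies, the CAPG-1 list 3 libraries with 2 antibodies, and the DPY-27 list 4 libraries with 2 antibodies. The lists are of unequal size on the X, with 2376 peaks of DPY-26, 1396 of DPY-28, 1519 of CAPG-1, 2175 of DPY-27, 945 of MIX-1 and 305 of AMA-1. Libraries of 1 protein were pooled before calling and no peak has a value per library, so no test over samples could be made. Read depth is not part of the peak lists. Shares are given with exact (Clopper-Pearson) 95% intervals and medians with exact order-statistic intervals, which cover counting error only and treat neighbouring peaks as independent.

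DPY-27 was the list that the DPY-26-only peaks met most often, and the other lists met few of them. Of the 948, 566 overlapped a DPY-27 peak (59.7%, 56.5 to 62.8), while the background over all X DPY-26 peaks was 80.1%. The share was 88.8% at peaks with one partner (85.6 to 91.6) and 95.8% at shared peaks (94.4 to 97). MIX-1, which pairs with DPY-27 in the same complex, was called at 24 of the 948 (2.53%, 1.63 to 3.74), with a background of 35.3%, against 19% at peaks with one partner and 74.5% at shared peaks. Both shares moved with score thresholds, and in the same direction under each. Only 18.1% of the 948 met a DPY-27 peak that reached the median score of its list, and 0.105% met such a MIX-1 peak. Of the 125 that themselves reached the median DPY-26 score, 84% had DPY-27 and 10.4% had MIX-1. Among the 948, 511 (53.9%) overlapped DPY-27 and no other of the 14 further lists, and 368 (38.8%) overlapped none of them. AMA-1 was called at 42 of the 948 (4.43%, 3.21 to 5.94), with a background of 10.3%, against 7.14% at peaks with one partner and 17.3% at shared peaks (15 to 19.9).

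Condensin II subunits and the cohesin loader were nearly absent from the lists at these places. KLE-2 and HCP-6 each met 1 of the 948 peaks (0.105%, 0.00267 to 0.586), with backgrounds over all X DPY-26 peaks of 8.84% and 11.2%. SCC-2 met 3 (0.316%, background 11%), and SMC-4 and CAPG-2 met 0, with backgrounds of 9.01% and 4.84%. The exact interval of 0 of 948 ends at 0.388%. At peaks with one partner the same lists met 0.67% (KLE-2), 1.12% (HCP-6), 0.67% (SCC-2), 0.446% (SMC-4) and 0.67% (CAPG-2), and at shared peaks 21%, 26.6%, 26%, 21.6% and 11.4% in the same order. Condensin II sites, taken as bases where peaks of at least 2 of its 3 own subunits coincided, numbered 202 on the X. Of these, 0 met a DPY-26-only peak and 186 met a shared peak. The median gap to the nearest condensin II site was 32135.5 bp for the DPY-26-only peaks (29305 to 34498), 27442.5 bp for peaks with one partner and 19511.5 bp for shared peaks (17178 to 22033). The IgG list holds 2 peaks on the X, and neither was at a DPY-26-only peak, with a background of 0.0842%.

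**Figure D1:**
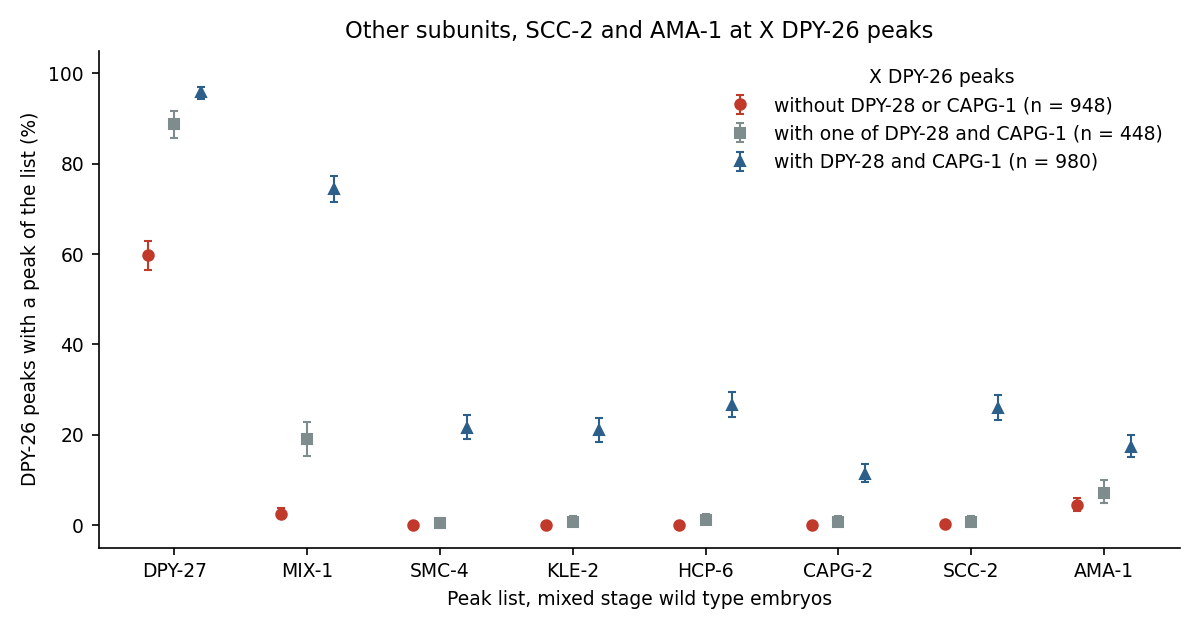
Share of X DPY-26 peaks (%) that overlap a peak of each list in wild type embryos, for peaks without DPY-28 or CAPG-1, with one of them and with both, as points with exact 95% intervals. DPY-27 is at 59.7%, 88.8% and 95.8% of the classes, MIX-1 at 2.53%, 19% and 74.5%, and the condensin II subunits and SCC-2 lie at or near 0 in the first class.

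The members that did meet one of the rare lists are few enough to name, and they were singled out after their values were seen. All positions are on WS220, counted from 1. The KLE-2 peak of embryos was at chrX:17311856-17313358, a DPY-26 peak of 1503 bp with a score of 494 that also met DPY-27, MIX-1 and the KLE-2 list of L3 larvae, and lay 94 bp from a shared peak. The HCP-6 peak was at chrX:5055816-5058598, which met MIX-1 but not DPY-27. SCC-2 met chrX:7283975-7285564, chrX:13209897-13211526 and chrX:15467575-15470716, and DPY-27 met each of these as well. The middle one had the highest DPY-26 score of the 3 at 1633 and a MIX-1 peak, and the last lay 21.5 kb from any shared peak with a score of 142. KLE-2 of L3 larvae met 3 members in all (0.316%, background 8.25%), the one above and chrX:15341594-15344396, which also had AMA-1, and chrX:15864874-15866856. No member met 2 of the 3 condensin II subunits.

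The lists of sdc-2 mutant embryos met 0 of the DPY-26-only peaks, but they hold few X peaks. The DPY-26 list of TY1072 holds 8 peaks on the X, of which 0 met a DPY-26-only peak and 5 met a shared peak, with a background over all X DPY-26 peaks of 0.21%. The HCP-6, KLE-2 and SCC-2 lists of TY1072, with 1, 24 and 69 peaks on the X, likewise met 0 of the 948, with backgrounds of 0.0421%, 0.547% and 2.36%. The exact interval of 0 of 948 ends at 0.388%, so the DPY-26 and HCP-6 counts cannot be told from their backgrounds. The SCC-2 list of the mutant met 55 of the 980 shared peaks (5.61%, 4.26 to 7.24). Of the 448 peaks with one partner it met 1 (0.223%, 0.00565 to 1.24), and the KLE-2 list of the mutant met 0. These intervals overlapped those of the DPY-26-only peaks. The mutant DPY-26 list joins 2 libraries made with 1 of the 3 antibodies of the wild type list. The paper describes the strain as AAAA XX and states that its X gave fewer reads relative to autosomes. The part of X dose, antibody and library number in these counts was not tested.

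The score and width of the DPY-26 peaks come from the list that the rule used, so they are given as a description. The score is the caller's p-value on a scale of minus 10 times its log10, and it is capped at 3100. The DPY-26-only peaks had scores between 100.4 and 3100 with a median of 407 (quartiles 254 and 661), against medians of 792 at peaks with one partner and 3100 at shared peaks. On the rank over all X DPY-26 peaks, where 100 would be the strongest, the median percentile was 24.1 (22.3 to 25.7), against 45.9 with one partner and 89.4 at shared peaks. The cap was reached by 2 DPY-26-only peaks (0.211%), 9 peaks with one partner (2.01%) and 493 shared peaks (50.3%). Put the other way round, 491 of the 594 peaks in the lowest score quartile were DPY-26-only peaks (82.7%), then 340 (57.2%) and 114 (19.2%), and 3 of 594 in the highest (0.505%).

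Widths overlapped more than scores did. The methods describe a step that split long peaks at their summits, and whether the deposited lists come before or after it is not given in the sources used here. A DPY-26-only peak may therefore be a piece of a longer region, which bears on every width, edge distance, neighbour and peak count given here. The DPY-26-only peaks were 1026 to 9936 bp wide with a median of 1804.5 bp (1721 to 1914), against 1990 bp with one partner (1833 to 2174) and 2809.5 bp at shared peaks (2645 to 2972). Together they covered 2.06 Mb, which is 30.5% of all bases under X DPY-26 peaks and 11.6% of the chromosome up to the last base of any list. The shared peaks covered 3.55 Mb, or 52.5% of the DPY-26 bases on the X.

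**Figure D2:**
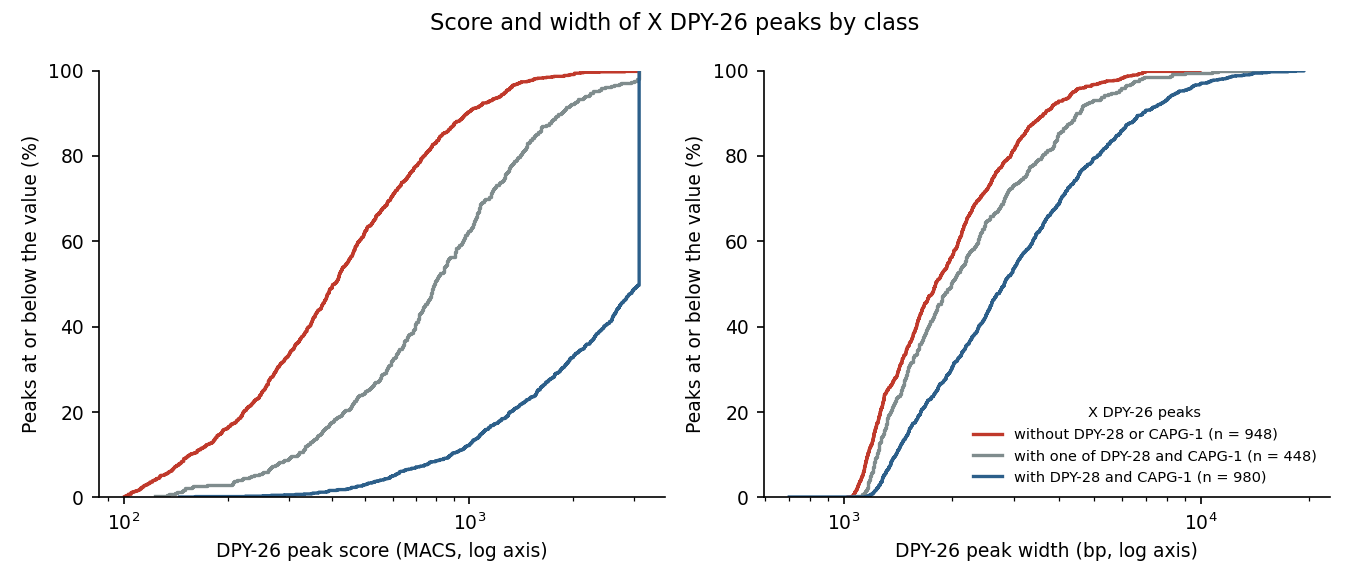
Cumulative share of X DPY-26 peaks (%) against peak score (left) and peak width in bp (right), both on log axes, one line per class. The median score is 407 without DPY-28 or CAPG-1, 792 with one of them and 3100, the cap, with both, while the median widths are 1804.5, 1990 and 2809.5 bp.

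The rule's edge is narrow for some peaks. Just inside it, chrX:6886150-6887512 lay 10 bp from a DPY-28 or CAPG-1 peak, chrX:10658729-10662564 lay 18 bp away and chrX:3815950-3822812 lay 24 bp away. Just outside it, chrX:12635785-12638218 shared 1 bp, chrX:11948963-11953548 shared 20 bp and chrX:12192485-12194532 shared 43 bp with such a peak, and all 3 overlapped DPY-27. Across all 948 the gap to the nearest DPY-28 or CAPG-1 peak had a median of 2961.5 bp (2580 to 3384) and a maximum of 50757 bp, and 177 peaks (18.7%) lay within 500 bp of one. To the nearest DPY-28 peak alone the median was 3872 bp, and to the nearest CAPG-1 peak alone 4031 bp.

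Because the classes differed in DPY-26 score, the DPY-27 share was read within quartiles of DPY-26 score set over all X DPY-26 peaks. In the lowest quartile DPY-27 was called at 240 of 491 DPY-26-only peaks (48.9%, 44.4 to 53.4), against 62 of 85 peaks with one partner (72.9%, 62.2 to 82) and 14 of 18 shared peaks (77.8%, 52.4 to 93.6). In the second quartile the shares were 67.1% of 340 (61.8 to 72), against 88.8% of 169 (83 to 93.1) and 94.1% of 85 (86.8 to 98.1). In the third they were 83.3% of 114 (75.2 to 89.7), against 96.1% of 178 (92.1 to 98.4) and 95% of 302 (91.9 to 97.2). The DPY-26-only peaks were below both other classes in each of these 3 quartiles. Their intervals lay apart from those of peaks with one partner in all 3, and from those of shared peaks in the second and the third. In the lowest, which held 18 shared peaks, the interval of the shared class overlapped theirs. The quartiles are wide and did not equalise score: median scores of DPY-26-only peaks were 258, 591 and 1211 in the first 3, against 304, 665 and 1298 with one partner and 351, 647 and 1621 at shared peaks. The fourth quartile holds 3 DPY-26-only peaks, all with DPY-27. Width gave no such gradient among them: DPY-27 was at 63.9%, 57.2%, 55% and 63.2% of the DPY-26-only peaks in width quartiles 1 to 4, against 98.6%, 98%, 96.1% and 93.5% of shared peaks.

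MIX-1 at DPY-26-only peaks went with score, as it did at peaks with one partner. It was called at 4 of 491 in the lowest score quartile (0.815%), 7 of 340 in the second (2.06%), 11 of 114 in the third (9.65%, 4.92 to 16.6) and 2 of 3 in the fourth, against 22.2%, 18.8%, 57% (51.2 to 62.6) and 93.6% of shared peaks. At peaks with one partner the MIX-1 shares were 3.53%, 12.4%, 28.7% and 62.5% in the same order. The 24 DPY-26-only peaks with MIX-1 had a median DPY-26 score of 1081 (610.3 to 1344), against 400.5 for the 924 without it (381 to 421), and 22 of the 24 also had DPY-27. The 24 MIX-1 peaks that met them were weak ones, with a median score of 232, at the 10.7 percentile of the MIX-1 peaks on the X. The MIX-1 and DPY-26 lists share 2 input samples, and DPY-27 and DPY-26 share 1. DPY-28, CAPG-1 and AMA-1 share 0 inputs with DPY-26. The part of shared inputs was not tested.

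AMA-1 overlap of the shared class stood apart from that of DPY-26-only peaks in the widest quartile of DPY-26 width only. In width quartiles 1 to 4, AMA-1 was called at 2.75%, 4.32%, 6.11% and 6.14% (2.5 to 12.2) of DPY-26-only peaks, against 2.86%, 5.05%, 9.69% and 34.1% (29.4 to 39.1) of shared peaks. At peaks with one partner the AMA-1 shares were 3.91%, 2.56%, 6.54% and 17.7% (10.7 to 26.8). The intervals of all classes overlapped in the 3 lower width quartiles. In the widest, the interval of DPY-26-only peaks lay apart from that of shared peaks but overlapped that of peaks with one partner. That quartile spans 3432 to 19422 bp, while DPY-26-only peaks reached 9936 bp, so widths within it were not matched. By score quartile the AMA-1 share of DPY-26-only peaks was 4.28%, 4.71% and 4.39% in the first 3 quartiles, and 0 of 3 in the fourth. Seen from the polymerase, 43 of the 305 AMA-1 peaks on the X met a DPY-26-only peak (14.1%), 161 met a shared peak (52.8%) and 90 met no DPY-26 peak (29.5%). The AMA-1 peaks at DPY-26-only peaks had a median score of 527, against 865 at shared peaks.

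**Figure D3:**
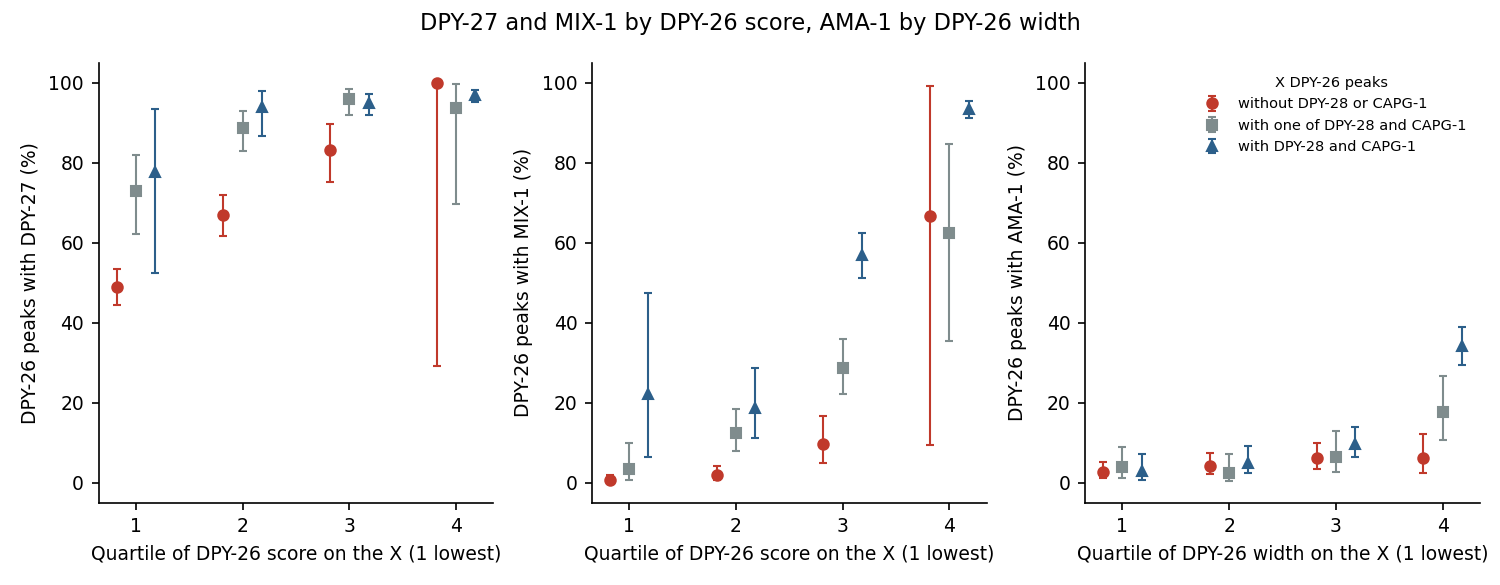
Share of X DPY-26 peaks (%) with DPY-27 (left) and with MIX-1 (middle) by quartile of DPY-26 score, and with AMA-1 (right) by quartile of DPY-26 width, as points with exact 95% intervals for the 3 classes. In score quartile 2, DPY-27 is at 67.1% of peaks without DPY-28 or CAPG-1 and at 94.1% of peaks with both, and in width quartile 4 AMA-1 is at 6.14% and 34.1% of the same classes.

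Where DPY-27 was called, it covered nearly the whole DPY-26-only peak. The median share of the peak's length inside DPY-27 peaks was 97.1% at the 566 (95.9 to 97.8), against 97.8% at peaks with one partner and 99.4% at shared peaks (98.9 to 99.7). At least 50% of the length was covered in 522 of the 566. The strongest DPY-27 peak on each had a median score of 643 (594 to 681), against 3100 at shared peaks (3029 to 3100). The DPY-27 score was at its cap at 43 of the 566 (7.6%, 5.55 to 10.1), against 52.8% of the shared peaks with DPY-27. Across the 566 the ranks of the DPY-26 and DPY-27 scores correlated weakly (Spearman's rho 0.112), a description over peaks of 2 pooled lists that share 1 input. From the DPY-27 side, 564 of the 2175 DPY-27 peaks on the X met a DPY-26-only peak (25.9%) and 950 met a shared peak (43.7%).

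The DPY-26-only peaks with DPY-27 differed from those without it in score and distance, while the intervals of their median widths overlapped. The 566 had a median DPY-26 score of 481 (448 to 524), against 323 for the 382 without DPY-27 (291 to 352). Their median width was 1749.5 bp (1649 to 1868), against 1894.5 bp (1779 to 2034) for those without DPY-27. Their median distance to the nearest shared peak was 3950.5 bp (3399 to 4605), against 6916.5 bp (5705 to 7673). Of the 382 without DPY-27, 91 (23.8%) lay within 500 bp of a DPY-27 peak, and the median gap to one was 1951.5 bp. The 368 in no other list at all had a median score of 324, scores up to 1731 and widths up to 6840 bp.

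Most DPY-26-only peaks lay within 10 kb of a shared peak, and so did most peaks with one partner. What share of the whole X lies that close to a shared peak was not computed, and the shared peaks themselves covered 20.0% of it. The distance from edge to edge had a median of 5192 bp (4622 to 5705), quartiles of 1691 and 11275 bp and a maximum of 115336 bp. For peaks with one partner the median was 3670.5 bp (3227 to 4791) and the upper quartile 10709 bp. Within 1 kb of a shared peak were 193 of the 948 (20.4%, 17.8 to 23.1), against 109 of the 448 with one partner (24.3%, 20.4 to 28.6). Within 10 kb were 679 (71.6%, 68.6 to 74.5), against 328 (73.2%, 68.9 to 77.3), shares that lay within each other's intervals. The DPY-26 score of DPY-26-only peaks did not fall off over this distance, with median scores of 373, 421, 401 and 429 in the 4 quartiles of distance from near to far.

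The DPY-27 share was higher close to shared peaks, where one DPY-27 peak often overlapped both kinds of DPY-26 peak. From the nearest to the farthest quartile, DPY-27 was called at 72.2% (66 to 77.8), 63.3%, 51.5% and 51.9% (45.3 to 58.4) of 237 DPY-26-only peaks each. Of the 566, 68 (12%) met only DPY-27 peaks that also overlapped a shared peak, and 62 of these 68 were in the nearest quartile, which ends at 1664 bp. With these 68 members left out of count and total, a choice made after the data were seen, the shares from near to far were 62.3% of 175 (54.7 to 69.5), 62.3% of 231 (55.7 to 68.6), 51.5% and 51.9% of 237 each, and the intervals overlapped. All 68 had DPY-27, so leaving them out could only lower a share, mainly that of the nearest quartile. DPY-27 peaks that touched no shared peak met 498 of the 948 (52.5%, 49.3 to 55.8).

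AMA-1 too was called mainly close to shared peaks. The 42 DPY-26-only peaks with AMA-1 lay at a median of 887 bp from a shared peak (214 to 2364), against 5461.5 bp for the 906 without it (4833 to 5891). They numbered 23, 12, 2 and 5 in the quartiles of distance from near to far. For 12 of the 42, all in the nearest quartile, the AMA-1 peak also overlapped a shared peak. The other 30 lay at a median of 2250 bp and numbered 11, 12, 2 and 5 in the same quartiles. The median width of the 42 was 2220 bp (1886 to 2646), against 1788 bp without AMA-1. DPY-27 was called at 30 of the 42 (71.4%, 55.4 to 84.3), against 59.2% of the 906 without AMA-1 (55.9 to 62.4), and the intervals overlapped. The 3 with the highest DPY-26 scores, picked after the values were seen, were chrX:6721458-6727693 (score 1328, 6236 bp wide), chrX:16647080-16650889 (score 1218) and chrX:2406418-2408221 (score 1013), all with DPY-27.

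**Figure D4:**
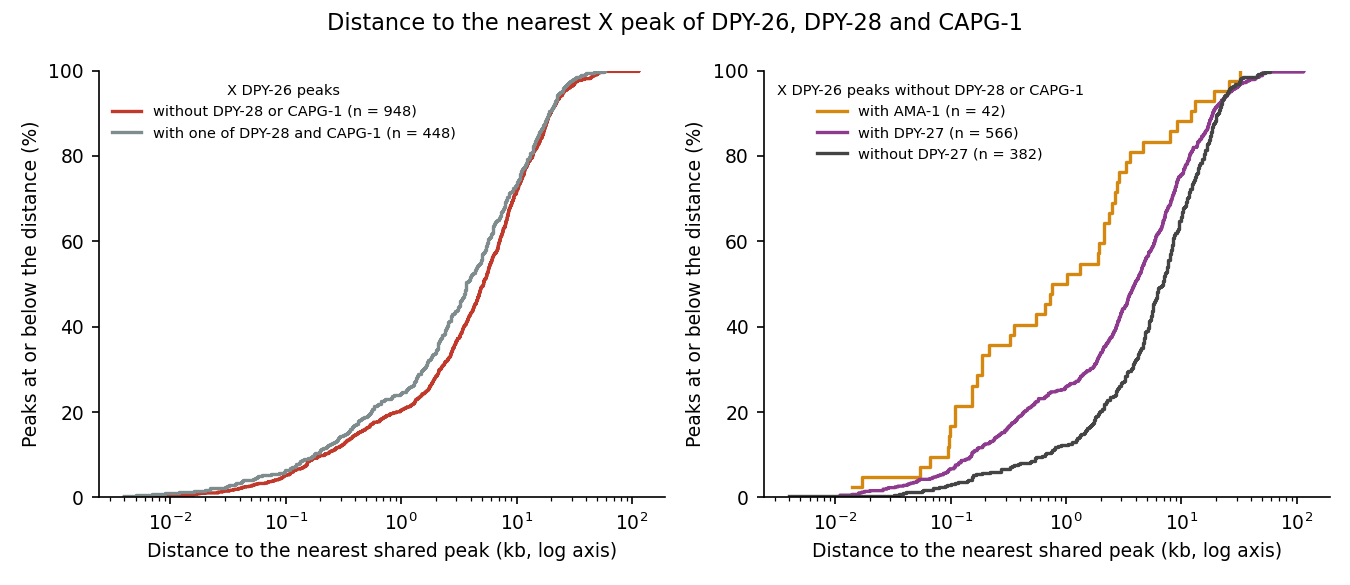
Cumulative share of X DPY-26 peaks (%) against the distance to the nearest shared peak in kb on a log axis, for peaks without DPY-28 or CAPG-1 and with one of them (left), and within the peaks without either partner for those with AMA-1, with DPY-27 and without DPY-27 (right). The medians are 5192 and 3670.5 bp on the left, and 887, 3950.5 and 6916.5 bp on the right.

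The strongest DPY-26-only peaks all overlapped DPY-27. The 5 highest scores were at chrX:5406160-5408414 and chrX:7744899-7750846 (both at the cap of 3100), chrX:5261605-5264370 (2818), chrX:16116047-16121926 (2374) and chrX:883676-890535 (2139). DPY-27 covered 88.4%, 92.8%, 94.8%, 71% and 72.3% of their lengths in that order, and the first and the third also had MIX-1. Their distances to the nearest shared peak were 12.5, 18.1, 3.39, 6.31 and 5.39 kb in the same order. The second lay 749 bp from a DPY-28 or CAPG-1 peak, and the others at least 2808 bp from one.

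By score rank over all X DPY-26 peaks, the widest lay between the 14.4 and the 52.6 percentile. Within their own class, those scoring 693, 947 and 988 lay above the upper quartile of 661. The 5 widest were chrX:7159673-7169608 (9936 bp, score 351), chrX:15235296-15244410 (9115 bp, score 286), chrX:5413958-5420953 (6996 bp, score 693), chrX:4351944-4358913 (6970 bp, score 947) and chrX:3815950-3822812 (6863 bp, score 988). All 5 met DPY-27, which covered 62.1%, 28.2%, 22.5%, 100% and 100% of them in that order. The second also had MIX-1 and the fourth AMA-1. The first, the third and the fifth lay 97, 7 and 397 bp from a shared peak.

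The 5 DPY-26-only peaks most remote from a shared peak scored below the class median of 407. The farthest quartile of distance as a whole had a median score of 429, against 373 in the nearest. The 2 farthest from a shared peak were neighbours near the left end of the X, chrX:45792-47057 and chrX:47199-48413, at 115 and 114 kb, with scores of 110.0 and 342 and DPY-27 over 92.7% and 100% of their lengths. The next 3 were chrX:4076906-4078201 at 58.3 kb (score 279, in no other list), chrX:3480829-3484098 at 54.7 kb (score 123, with DPY-27) and chrX:12805587-12806840 at 53.1 kb (score 249.7, in no other list). The nearest to a shared peak were chrX:4499677-4501319 at 4 bp (score 149, in no other list), chrX:5413958-5420953 at 7 bp and chrX:9841711-9844249 at 11 bp (score 1019), the last 2 with DPY-27.

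Along the chromosome the DPY-26-only peaks occurred throughout. The 17 whole Mb bins of the X held 35 to 79 of them each, with a median of 50, and they made up 33.3% to 50% of the DPY-26 peaks of a bin. The highest count and share were between 5 and 6 Mb (79 of 158 peaks, 42 to 58%). Counted over the DPY-26-only peaks of a bin, which are fewer, the share with DPY-27 ranged between 38.3% of 47 in the bin from 7 to 8 Mb (24.5 to 53.6) and 81% of 63 in the bin from 2 to 3 Mb (69.1 to 89.8). These bins were picked as the extremes, and the median DPY-26 score of their DPY-26-only peaks was 429 and 393.

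The DPY-26-only peaks and the shared peaks each lay next to their own class more often than its part of the list. The nearest other DPY-26 peak was itself a DPY-26-only peak for 454 of the 948 (47.9%, 44.7 to 51.1), while the class makes up 39.9% of the list, and a shared peak for 328 (34.6%, 31.6 to 37.7), while that class makes up 41.2%. For shared peaks the nearest was another shared peak in 48.8% (45.6 to 52). For peaks with one partner it was of the same class in 20.1% (16.5 to 24.1), beside 18.9% of the list. The gap to that neighbour had a median of 755 bp (632 to 995), against 841.5 bp for shared peaks (659 to 1047), so the classes were spaced alike within their intervals. Counting runs of DPY-26-only peaks with no other DPY-26 peak between them, 281 stood singly, 238 in runs of 2 and 429 in 109 runs of at least 3. The longest run held 9 peaks over 101 kb at chrX:4017253-4118420, 7 of them with DPY-27 and with a median score of 757. Runs of 8 lay at chrX:13782791-13835021 (4 with DPY-27), chrX:15107358-15147724 (6 with DPY-27) and chrX:15929648-15977273 (2 with DPY-27, median score 223).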

How the data were processed

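Processed peak lists of ChIP-seq in C. elegans were used, 17 in all, each pooling the libraries of 1 protein, strain and stage. According to the methods, the authors aligned single-end reads to WS220 with Bowtie 0.12.7 (version from the submitters' processing notes), combined replicates with BEDTools, called peaks with MACS at a p-value cutoff of 1e-10 and kept those also present in most single replicates. Splitting of long peaks at summits with PeakAnalyzer is also described, and whether it precedes the deposited lists is not given in the sources used here. The deposited score of each peak is the MACS score, capped at 3100, so it ranks peaks within a list and cannot separate those at the cap. Pooling and the majority rule both shape which weak peaks survive, and the lists differ in library number.

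Overlap meant at least 1 shared bp, distance the bases between peak edges, and a shared peak an X DPY-26 peak with both DPY-28 and CAPG-1. Lists were read with pandas 2.3.3 and analysed in Python 3.11.15 (scipy 1.17.1, numpy 2.4.6). The overlap and distance code was checked against a base-by-base count on simulated intervals. In the CAPG-1 list, which names chromosomes differently, peak centres within 500 bp of a DPY-26 centre were offset by a median of 2.5 bp. Peaks named were the 5 with the highest score, the 5 widest, the 5 farthest from and the 3 nearest to a shared peak, and the 3 on each side of the rule's edge. The rule also named members in the IgG list, a TY1072 list or at least 2 condensin II lists, of which there were 0. Members meeting single KLE-2, HCP-6, SCC-2 or AMA-1 peaks, and the longest runs, were named after their values were seen. The members and lists were chosen with earlier results of these data known. Coverage tracks, HTZ-1 and the RNA tables were not analysed here, and no gene positions or sequence of WS220 were used, so no gene is named at a peak. Alternatives covered the overlap rule, score thresholds, merging and distance.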

Additional observations from a re-analysis of the deposited data

How the results depend on the processing

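The lists hold calls and no signal, a score that is capped, and no value per library, so the results depend on thresholds. No paired analysis was possible because each list pools its libraries, and no library could be left out for the same reason. Of 47 alternative values for the main results, 15 stayed within 1.5 times the count or inside the interval of the reported value. Keeping DPY-26 peaks that reached the median score of their list left 125 peaks, with DPY-27 at 84%, a median width of 3105 bp and a median score percentile of 58.1. Keeping as many X DPY-26 peaks by score as the DPY-28 list has, chosen after the data were seen, left 214, with DPY-27 at 80.8%, a median width of 2772.5 bp and a percentile of 51.2. Asking DPY-28 and CAPG-1 peaks to reach the median scores of their lists gave 1596 peaks, with DPY-27 at 72.4%, a percentile of 34.4 and a distance of 8428.5 bp. With no partner peak within 500 bp, DPY-27 was at 55.6% and the distance 5730 bp. With no partner over the centre, DPY-27 was at 64.2%, AMA-1 at 6.18%, the width 2024 bp, the percentile 26.9 and the distance 6075 bp. Merging within 200 bp gave AMA-1 at 3.21%, a width of 1983 bp and a percentile of 22.3. Asking for 50% of the length gave DPY-27 at 55.1% and AMA-1 at 2.11%, a covered centre 55% and 2.53%, peaks of the other list that reached its median score 18.1% and 1.79%, and peaks off shared sites, chosen after the data were seen, 52.5% and 3.16%. The distance was 8127.5 bp between centres and 5899.5 bp to bases covered by all 3 subunits. The cause of these shifts was not tested beyond the construction of each setting. For the 12 other lists, 84 of 108 values stayed inside their interval, and the highest was 10.4%, for MIX-1.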

Other observations

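The rule turned round gave far fewer peaks for the partners. Beside the 948 of 2376 X peaks for DPY-26 (39.9%, 37.9 to 41.9), 70 of 1396 DPY-28 peaks met neither DPY-26 nor CAPG-1 (5.01%, 3.93 to 6.29) and 95 of 1519 CAPG-1 peaks met neither DPY-26 nor DPY-28 (6.25%, 5.09 to 7.59). The parts of list length and score in this difference cannot be told apart. Among the 1396 strongest X DPY-26 peaks, as many as DPY-28 has, 214 met neither partner (15.3%, 13.5 to 17.3). That cut dropped the weakest peaks, and DPY-26-only peaks made up 82.7% of the lowest score quartile. The DPY-27 share was 59.7% for DPY-26 (56.5 to 62.8), against 58.6% for the DPY-28 set (46.2 to 70.2) and 52.6% for the CAPG-1 set (42.1 to 63), and the 3 intervals overlapped. MIX-1 was called at 2.53% for DPY-26 (1.63 to 3.74), against 5.71% of the DPY-28 set (1.58 to 14) and 18.9% of the CAPG-1 set (11.6 to 28.3). The median score percentile within the own list was 24.1 for DPY-26, against 6.91 for the DPY-28 set and 22.6 for the CAPG-1 set. Of 2175 DPY-27 peaks on the X, 298 met none of the 3 non-SMC subunits (13.7%), with a median score percentile of 16.1, and 2 of these had MIX-1.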
